A study of Mus musculus with 40 samples.

Results

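The genes described here are 8 mouse liver genes whose microarray probes disagreed: Actb, Kng1, Acaa2, Chmp2a, Dap3, Ergic3, Mterf4 and Hnrnpk. They were listed because, with each probe of a gene kept apart, some of its probes were higher and others lower in restricted than in meal-fed livers on the NIA diet. They hold 27 of the 25697 probes and are 8 of the 16593 named genes on the array. They were chosen by measured values of the CR-NIA and MF-NIA arrays, so every value from those groups is a description without a test, and tests are given only for the other 4 groups. For 7 of the 8 genes, probes passed the threshold in opposite directions in the choosing contrast. Hnrnpk did not meet that condition, since its higher probe, ILMN_2784821, differed by only 0.08 ± 0.10 (SE) on the log2 scale. Just inside, the opposite calls of Mterf4 rested on differences of 0.36 ± 0.13 and -0.26 ± 0.07 (SE).

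The livers came from male mice of the inbred C57BL/6J strain, and each of 40 arrays measured 1 liver sample. Caloric restriction (CR) was by 30%, and CR mice ate from the cage floor (9 arrays on the NIA diet, 10 on the WIS diet). Meal-fed (MF) mice ate from the hopper (6 NIA, 4 WIS), and like CR mice were given a single portion a day at 3 pm. Ad libitum (AL) mice had free access (5 NIA, 6 WIS). Mice arrived at 6 weeks, diets began at 5 months of age, and portions were fixed at 14 months. The open-source NIA diet supplied 7.6% of its energy as sucrose and 17.7% as fat, and the purified WIS diet 46% and 24.4%. MF-NIA intake in calories was matched to that of MF-WIS and AL-WIS mice, and AL-NIA mice ate most. Amount eaten and place of feeding cannot be told apart between CR and MF mice. Age at collection is not given in the sources used here, and neither is a processing batch. The p-values measure the spread between these samples.

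On this type of array each probe is a short bead-bound sequence that captures labelled RNA from a single stretch of a transcript. The labelling used here copies RNA from the poly(A) tail with an oligo-dT primer, so copies of shortened or partly degraded molecules lose stretches far from that tail first. Several probes of a gene can therefore report different transcript ends or isoforms, and probes can also bind copies of related genes. The platform annotation listed all probes of each of the 8 genes under the same RefSeq transcript, and gave no position of a probe within it. Actb has the close relative Actg1 and many processed pseudogenes, Hnrnpk has processed pseudogenes, and mouse Kng1 has the near-identical copy Kng2, so probes of these 3 genes may read more than 1 gene.

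Arrays and groups differed in overall signal. The share of probes detected (detection p under 0.01) ranged from 34% to 38.5% on CR-NIA, 35.5% to 40.3% on MF-NIA, 36.1% to 40.5% on CR-WIS, 35.9% to 40.1% on MF-WIS and 36.8% to 43.6% on AL-WIS arrays. Median signals were 135 to 199 on CR-NIA and 170 to 276 on MF-NIA arrays, with MF-NIA the brighter group. They were 156 to 209 on CR-WIS, 165 to 191 on MF-WIS and 134 to 208 on AL-WIS arrays. The part of overall signal in the probe differences was not tested. RNA integrity values per sample and probe positions were not used here, so neither RNA quality nor transcript ends were tested. AL-WIS replicate 1 lay at 93 on the first principal component (28.8% of the variance), against at most 23.4 for any other array (MF-NIA replicate 4). Its macrophage marker level, the mean log2 deviation of the markers from their mean over all arrays, was 3.52 (11 of 14 markers detected, Cd68, Csf1r and Cd5l not detected), with an AL-WIS range of -0.11 to 3.52, and -0.76 to 0.61 in CR-WIS and -0.62 to 0.41 in MF-WIS. MF-WIS replicate 4 had a bile duct marker level of 2.44 (2 of 7 markers detected, Krt7, Krt19, Epcam, Spp1 and Cftr not detected). Of 12 hepatocyte markers 8 were detected, and their level ranged from -0.42 to 0.65 in CR-NIA, -0.45 to -0.04 in MF-NIA, -0.28 to 0.50 in CR-WIS, -0.29 to 0.36 in MF-WIS and -0.95 to 0.13 in AL-WIS arrays. The library labelled CR-NIA replicate 1 matched no CR-NIA column of the deposited signal table, which has 1 column fewer for CR-NIA and 1 more for AL-NIA than the labels list, so its label is uncertain. The CR-NIA values that this library moves are given without it as well.

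Of the 27 probes, 26 passed the detection filter, which asked for a detection p under 0.01 on at least 4 of 34 signal columns. The exception was the Hnrnpk probe ILMN_2708776, detected on 0 of 34. The Mterf4 probe ILMN_1218949 was detected on 20, among them 1 of 8 CR-NIA and 5 of 6 MF-NIA columns, so its lower CR-NIA value rests in part on background. The remaining 25 were detected on all 34. All values are deposited scores multiplied by 1.51, so that differences read in log2 units. Zero on that scale is the mean of all probes on an array. Levels of different probes cannot be set against each other, and only a difference between groups of mice has a meaning. For each gene, a probe difference was formed on every array: the probe with the highest CR-NIA minus MF-NIA value minus the probe with the lowest.

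In the choosing contrast, 9 of the 26 probes were called higher and 8 lower in CR-NIA than in MF-NIA, among all 11334 probes 5.79% and 13.3%. Called means a limma p-value under 0.05 after Benjamini-Hochberg adjustment over all probes, and since the contrast chose the genes nothing is read from these counts. The probe differences were higher in CR-NIA than in MF-NIA by between 0.62 (Mterf4) and 3.29 (Actb) on the log2 scale, with a median of 1.05 over the 8 genes. Every CR-NIA array lay above every MF-NIA array for Acaa2, Chmp2a, Ergic3 and Hnrnpk, 4 of the 8 genes, and 4.16% of the 1993 genes did the same. For Actb, Dap3 and Mterf4, 8 of 9 CR-NIA arrays did, and for Kng1 5 of 9. Without the library labelled CR-NIA replicate 1 the differences were 3.62 for Actb, 1.53 for Kng1, 1.28 for Acaa2, 0.73 for Chmp2a, 0.80 for Dap3, 0.97 for Ergic3, 0.70 for Mterf4 and 1.45 for Hnrnpk. Of the 26 separate probes 2 then moved by over 0.1, the Actb probe ILMN_2617433 (-1.55) and the Hnrnpk probe ILMN_1245987 (-1.39), and 1 near 0 changed sign, the Actb probe ILMN_2698799 (-0.05).

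**Figure D1:**
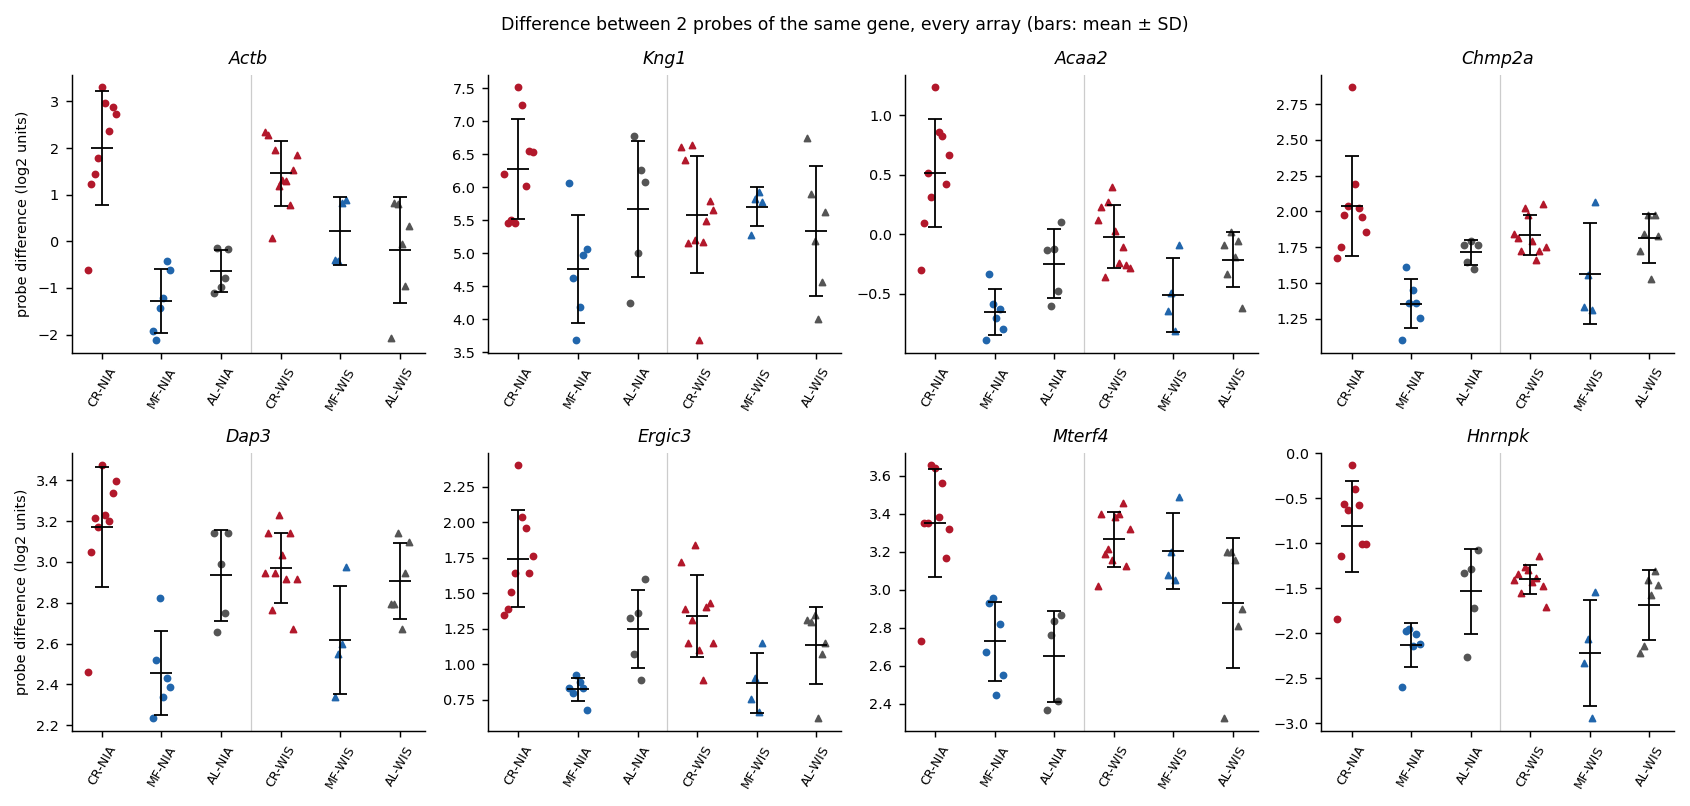
Probe difference of each gene (vertical axis, log2 units, its own range per panel) on every array, by group, with bars for mean ± SD. For Hnrnpk, 8 of 10 CR-WIS arrays lie above all 4 MF-WIS arrays, and for Kng1 the CR-WIS and MF-WIS arrays are mixed.

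Actb encodes cytoplasmic beta-actin, a filament protein whose transcript is a common reference for RNA measurements. In bulk liver RNA, fewer cells of a type and less RNA per cell cannot be told apart. ILMN_2846865 and ILMN_2588055 were higher in CR-NIA than in MF-NIA by 1.98 and 1.94, ILMN_1377923 was higher by 0.49, ILMN_2698799 differed by 0.00 and ILMN_2617433 was lower by 1.31. The level of ILMN_2846865 was 2.52, 3.68 and 4.20 in CR-NIA livers (lowest, median and highest), against 0.26, 1.53 and 2.35 in MF-NIA livers. The level of ILMN_2617433 was 0.71, 1.31 and 3.40 in CR-NIA livers, against 2.27, 2.85 and 3.26 in MF-NIA livers. The groups did not overlap for ILMN_2846865, as for 2.49% of all 11334 probes in either direction. For ILMN_2617433 they overlapped through the highest CR-NIA array, that of the library labelled CR-NIA replicate 1, and without it the highest CR-NIA level was 1.60. Macrophage marker levels ranged from -0.90 to 0.50 in CR-NIA and -0.35 to 0.92 in MF-NIA livers, and neutrophil marker levels (5 of 8 markers detected, Ngp, Retnlg and Cxcr2 not detected) from -0.96 to 0.58 in CR-NIA and -0.55 to 2.52 in MF-NIA livers. The highest MF-NIA level of both was that of replicate 4, and their part in the Actb values was not tested.

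On the WIS diet, which took no part in the choice, ILMN_2846865 was at 2.33, 3.50 and 4.38 in CR-WIS livers (lowest, median, highest), and at 2.45, 2.37, 3.67 and 2.85 in the 4 MF-WIS livers. ILMN_2617433 was at 1.40, 1.86 and 3.06 in CR-WIS livers, and at 2.84, 2.79, 2.85 and 1.96 in MF-WIS livers. Each probe's groups overlapped. The difference between these probes was 0.08, 1.42 and 2.36 in CR-WIS livers, against -0.39, -0.42, 0.82 and 0.89 in MF-WIS livers, and 8 of 10 CR-WIS arrays lay above all MF-WIS arrays. The Actb probe difference was 1.24 ± 0.49 (SE) larger in CR-WIS than in MF-WIS, which did not pass limma's test (adjusted p = 0.207).

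Against AL-WIS livers, whose Actb probe differences were -2.08, 0.14 and 0.83 (lowest, median, highest), the CR-WIS probe difference was larger by 1.65 ± 0.43 (SE) and passed limma's test (adjusted p = 0.0384). Again 8 of 10 CR-WIS arrays lay above all AL-WIS arrays. Of the separate probes, ILMN_2617433 fell by 0.92 in CR-WIS relative to AL-WIS (adjusted p = 0.0397) and ILMN_2698799 fell by 0.62 (adjusted p = 0.0223), while ILMN_2846865 differed without passing. Without AL-WIS replicate 1, the array with the macrophage marker excess, the probe difference was 1.27 (adjusted p = 0.153), ILMN_2617433 was lower by 0.61 (adjusted p = 0.195) and ILMN_2698799 by 0.41 (adjusted p = 0.121), so none of these calls held. Without that array, MF-WIS replicate 4 and the library labelled CR-NIA replicate 1 together, the probe difference was also 1.27 and passed (adjusted p = 0.0491), as it did with array weights (1.28, adjusted p = 0.0341). The Actb probe difference passed in 8 of 16 fits with 1 library left out. It also missed the threshold without AL-WIS replicate 4 (1.68) or 5 (1.50), and without CR-WIS replicate 1 (1.55), 2 (1.56), 4 (1.60), 9 (1.65) or 10 (1.61).

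**Figure D2:**
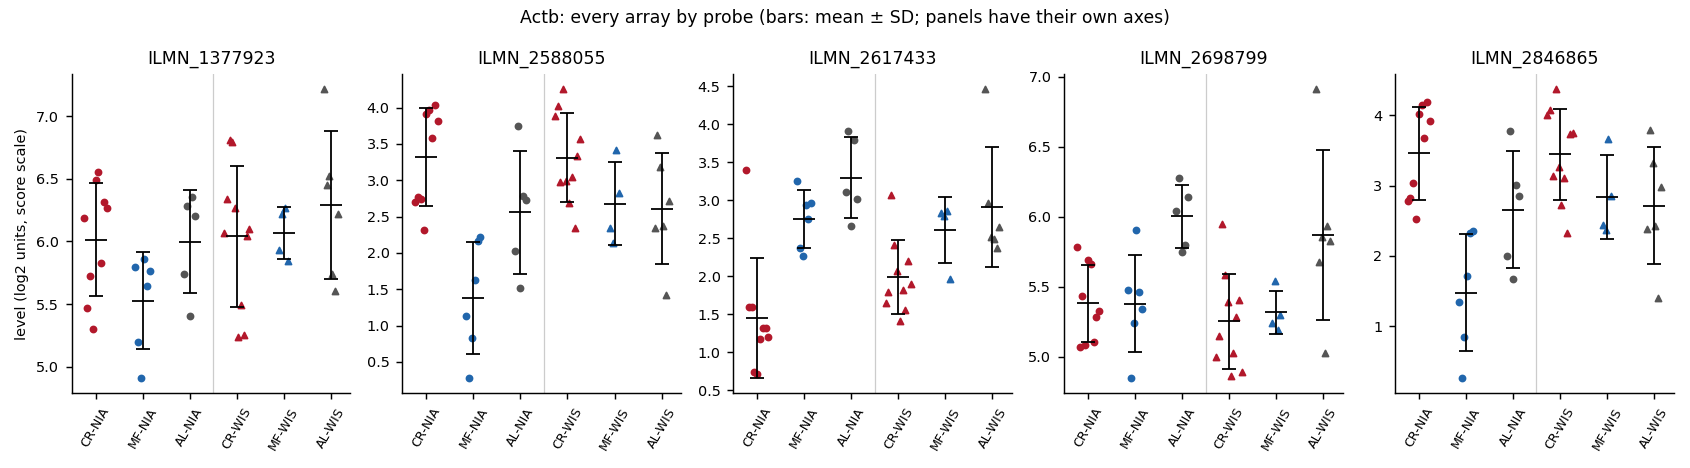
Level of each of the 5 Actb probes (vertical axis, log2 units on the score scale, its own range per panel) on every array, by group, with bars for mean ± SD. ILMN_2588055 and ILMN_2846865 show the same pattern, with the lowest levels in MF-NIA livers, and ILMN_2617433 has its lowest levels in CR-NIA livers.

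Hnrnpk encodes an RNA-binding protein with KH domains that takes part in splicing, transcription and mRNA stability. The level of ILMN_1245987 was -0.09, 0.91 and 2.02 in CR-NIA livers, against 1.77, 2.05 and 2.58 in MF-NIA livers, lower by 1.24. That of ILMN_2784821 was -0.23, 0.07 and 0.35 in CR-NIA livers, against -0.18, -0.04 and 0.15 in MF-NIA livers. The measured disagreement thus lay in ILMN_1245987. The other probe was dim, with a median signal of 312.5 (179 to 428), so a change in it may be understated.

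On the WIS diet the larger difference was again that of ILMN_1245987, lower in CR-WIS than in MF-WIS by 0.74. That probe by itself did not pass limma's test (adjusted p = 0.0915). ILMN_1245987 was at 0.92, 1.57 and 2.04 in CR-WIS livers, and at 2.27, 2.22, 2.97 and 1.62 in MF-WIS livers. ILMN_2784821 was at -0.23, 0.15 and 0.33 in CR-WIS livers, and at -0.06, 0.15, 0.03 and 0.08 in MF-WIS livers. The Hnrnpk probe difference was -1.71, -1.40 and -1.15 in CR-WIS livers, against -2.33, -2.07, -2.94 and -1.54 in MF-WIS livers. It was larger in CR-WIS by 0.82 ± 0.22 (SE) and passed limma's test (adjusted p = 0.045), with 8 of 10 CR-WIS arrays above all MF-WIS arrays. The call was close to the threshold. It held in 3 of 14 fits with 1 library left out, in which the difference ranged from 0.58 to 1.04 and adjusted p from 0.0298 to 0.288. The call was lost without CR-WIS replicate 1, 2, 4, 5, 6, 7, 8 or 9, or MF-WIS replicate 1, 2 or 3, and the lowest value was that without MF-WIS replicate 3. Against AL-WIS livers, at -2.22, -1.52 and -1.31, the CR-WIS difference of 0.28 did not pass (adjusted p = 0.566).

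Acaa2 encodes mitochondrial 3-ketoacyl-CoA thiolase, which performs the last step of fatty acid beta-oxidation. Its probes ILMN_2704822, ILMN_2704823 and ILMN_2704826 were lower in CR-NIA than in MF-NIA by 0.60, 0.64 and 0.56, whereas ILMN_2788984 was higher by 0.53. ILMN_2788984 was at 4.76, 5.03 and 5.53 in CR-NIA livers, against 4.29, 4.54 and 4.63 in MF-NIA livers, without overlap (2.49% of all probes in either direction). On the WIS diet it was at 4.70, 5.05 and 5.45 in CR-WIS livers, against 4.58, 4.50, 4.70 and 4.18 in MF-WIS livers. The 3 probes that were lower in CR-NIA were not lower in CR-WIS, where they differed from MF-WIS by 0.15, 0.07 and 0.12 with no call. The Acaa2 probe difference (ILMN_2788984 minus ILMN_2704823) was -0.36, -0.04 and 0.39 in CR-WIS livers, against -0.65, -0.50, -0.82 and -0.09 in MF-WIS livers. It was larger in CR-WIS by 0.49 ± 0.18 (SE) and did not pass (adjusted p = 0.163). Relative to AL-WIS, ILMN_2788984 rose by 0.64 in CR-WIS (adjusted p = 0.0248), and without AL-WIS replicate 1 the rise was 0.33 (adjusted p = 0.133). The other probes of the gene were not called there, and the probe difference of 0.19 did not pass (adjusted p = 0.669).

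Ergic3 encodes a protein that cycles between the endoplasmic reticulum and the Golgi. Its 2 probes differed in CR-NIA from MF-NIA by 0.37 (ILMN_2992541) and -0.55 (ILMN_2599615). The probe difference was 0.89, 1.35 and 1.84 in CR-WIS livers, against 0.76, 0.91, 0.66 and 1.15 in MF-WIS livers, and 6 of 10 CR-WIS arrays lay above all MF-WIS arrays. The CR-WIS value was larger by 0.47 ± 0.16 (SE, adjusted p = 0.121). The separate probes went the same opposite ways as on the NIA diet, with no call.

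Dap3 encodes a GTP-binding protein of the small subunit of the mitochondrial ribosome. In CR-NIA relative to MF-NIA, ILMN_2620078 and ILMN_2722542 were higher by 0.33 and 0.22, and ILMN_2646230 and ILMN_2953910 were lower by 0.38 and 0.21. The Dap3 probe difference was 2.67, 2.94 and 3.23 in CR-WIS livers, against 2.34, 2.55, 2.60 and 2.97 in MF-WIS livers. It was larger in CR-WIS by 0.35 ± 0.13 (SE, adjusted p = 0.172), and the groups overlapped.

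Chmp2a encodes a subunit of ESCRT-III, the complex that closes membrane necks. In CR-NIA relative to MF-NIA, ILMN_2801790 was higher by 0.41, ILMN_2694998 was lower by 0.27 and ILMN_1240683 differed by -0.01. The Chmp2a probe difference was 1.66, 1.80 and 2.05 in CR-WIS livers, against 1.33, 1.56, 1.31 and 2.07 in MF-WIS livers. The highest MF-WIS value, that of replicate 4, exceeded every CR-WIS value. The CR-WIS mean was larger by 0.27 ± 0.14 (SE, adjusted p = 0.317). All 3 probes were higher in CR-WIS than in MF-WIS, by 0.05 to 0.32, with no call.

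Mterf4 encodes a mitochondrial protein that works with the methyltransferase Nsun4 in ribosome assembly. In CR-NIA relative to MF-NIA, ILMN_1236049 was higher by 0.36, and ILMN_2679695 and the dim ILMN_1218949 were lower by 0.25 and 0.26. The Mterf4 probe difference was 3.02, 3.27 and 3.46 in CR-WIS livers, against 3.08, 3.20, 3.05 and 3.49 in MF-WIS livers. The groups overlapped almost fully, and their means differed by 0.06 (95% interval -0.22 to 0.34, adjusted p = 0.877). That pair takes in the dim ILMN_1218949. Between the 2 probes detected on all columns, ILMN_1236049 minus ILMN_2679695, the difference was larger in CR-WIS than in MF-WIS by 0.35 (95% interval 0.04 to 0.66) and did not pass (adjusted p = 0.254), and in CR-NIA relative to MF-NIA it was 0.61. All 3 Mterf4 probes were lower in CR-WIS than in MF-WIS (differences from -0.36 to -0.02), with no call. Relative to AL-WIS livers, at 2.33, 3.03 and 3.20, the CR-WIS value was larger by 0.33 and did not pass (adjusted p = 0.146).

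Kng1 encodes kininogen, the secreted liver protein from which bradykinin is cut. In CR-NIA relative to MF-NIA, ILMN_2788221 and ILMN_2788223 were higher by 0.65 and 0.78, and ILMN_1225218 was lower by 0.74. The signals of ILMN_2788223 reached 59486. The Kng1 probe difference was 3.68, 5.58 and 6.64 in CR-WIS livers, against 5.27, 5.83, 5.93 and 5.78 in MF-WIS livers. The CR-WIS arrays lay on both sides of the MF-WIS arrays, and the means differed by -0.12 (95% interval -1.06 to 0.82, adjusted p = 0.93). All 3 probes were higher in CR-WIS, by 0.16 to 0.28, with no call.

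**Figure D3:**
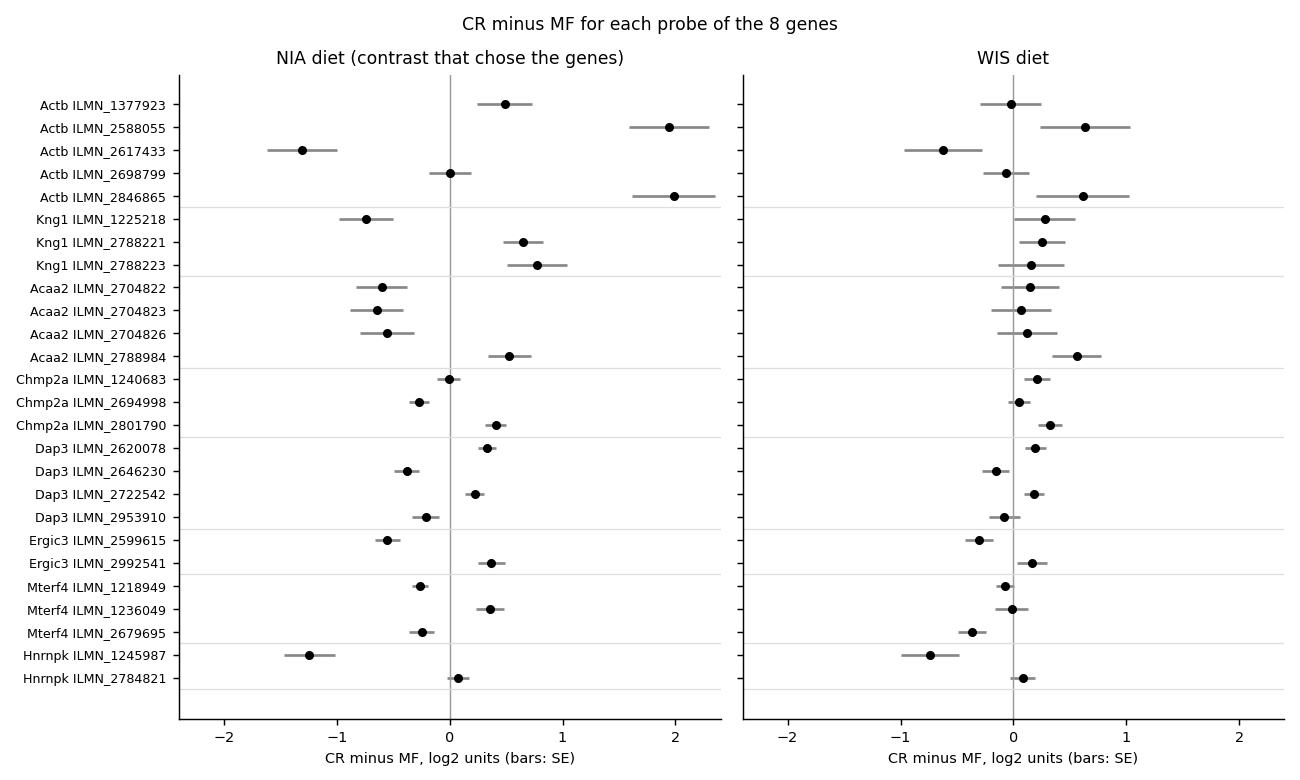
CR minus MF difference of each of the 26 probes (horizontal axis, log2 units, points with SE bars) on the NIA diet, which chose the genes, and on the WIS diet. On the WIS diet 0 of the 26 probes were called, and Actb ILMN_2588055 and ILMN_2846865 lie above 0 and ILMN_2617433 below 0 on both diets.

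Between CR-WIS and MF-WIS, 1 of the 8 probe differences was called by limma, that of Hnrnpk, where 1.71% of 1993 genes with several probes were called. The differences were above 0, the direction of the NIA groups, for 7 of 8 genes. Of all 1993 genes, with their probe pairs oriented by the NIA groups in the same way, 71.7% were above 0. The median was 0.41 for the 8 genes and 0.09 for all 1993. Without regard to calls, all probes of a gene went the same way in 4 of the 8 genes (Acaa2, Chmp2a, Kng1 and Mterf4) and opposite ways in the other 4. Of the 26 separate probes, 0 were called, against 3.34% of all probes; 2371 of 11334 probes had an unadjusted p under 0.05. MF-WIS replicate 4 had the highest MF-WIS probe difference for Actb, Acaa2, Chmp2a, Dap3, Ergic3, Mterf4 and Hnrnpk. Without that array, AL-WIS replicate 1 and the library labelled CR-NIA replicate 1, the probe differences of 5 genes were called: Actb (1.46, adjusted p = 0.0388), Acaa2 (0.63, adjusted p = 0.0323), Dap3 (0.47, adjusted p = 0.0209), Ergic3 (0.56, adjusted p = 0.046) and Hnrnpk (1.04, adjusted p = 0.00529). Those of Chmp2a (0.44, adjusted p = 0.0557), Mterf4 (0.16, adjusted p = 0.491) and Kng1 (-0.10, adjusted p = 0.944) were not. In that fit 144 of all 3556 probe pairs were called, against 55 with all arrays kept. Leaving out MF-WIS replicate 4 by itself raises the differences of the genes for which it was the highest MF-WIS array. On the first principal component MF-WIS replicate 4 lay at 18.2, below MF-NIA replicate 4 (23.4), which was kept. With only 1 library left out, the probe differences of Actb, Acaa2, Dap3 and Ergic3 each passed in 0 of 14 fits.

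Between CR-WIS and AL-WIS, 1 of 8 probe differences was called, that of Actb, where 1.86% of the 1993 genes were called. All 8 differences were above 0 (63.9% of all genes), with a median of 0.23 against 0.04 for all genes. Those of Chmp2a (0.02) and Dap3 (0.06) were near 0. Of the separate probes 1 was called higher and 2 lower, against 6.29% and 6.76% of all probes, and without AL-WIS replicate 1 none of the 26 was called.

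Between MF-WIS and AL-WIS, 0 of 8 probe differences were called by limma, where 0% of genes were; 325 of 3556 probe pairs had an unadjusted p under 0.05. The differences were above 0 for 3 of 8 genes and for 38.5% of all. The probe differences of Acaa2, Chmp2a, Dap3, Ergic3 and Hnrnpk were smaller in MF-WIS, by between 0.25 (Chmp2a) and 0.53 (Hnrnpk), and those of Actb, Kng1 and Mterf4 were larger by 0.41, 0.37 and 0.27, with adjusted p from 0.501 to 0.833. The separate probes gave 0 calls, against 0.0441% of all probes. The contrasts with AL-WIS share its 6 arrays.

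Between AL-WIS and AL-NIA livers, which differ in diet alone among the labelled factors, 0 of 8 probe differences were called by limma, where 0.0502% of genes were, and 422 of 3556 pairs had an unadjusted p under 0.05. The median was 0.00 over the 8 genes, 4 of 8 were above 0 (52.7% of all genes), and the largest was 0.45 for Actb (95% interval -0.58 to 1.47). Of the probes 0 were called, against 0.0618% of all probes.

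The AL-NIA livers lay between the other NIA groups for 7 of the 8 genes. Choosing genes and pairs by CR-NIA minus MF-NIA favours that order, so nothing is read from the count. Of all 1993 genes, 74.1% had a probe difference above 0 in CR-NIA minus AL-NIA, and 28.7% in MF-NIA minus AL-NIA. The Hnrnpk probe difference averaged -0.81 ± 0.51 in CR-NIA (SD, n = 9), -2.13 ± 0.24 in MF-NIA (SD, n = 6) and -1.53 ± 0.47 in AL-NIA (SD, n = 5). That of Actb averaged 2.01 ± 1.22 in CR-NIA, -1.28 ± 0.68 in MF-NIA and -0.64 ± 0.46 in AL-NIA. Without the library labelled CR-NIA replicate 1 the CR-NIA averages were -0.68 ± 0.35 for Hnrnpk and 2.34 ± 0.77 for Actb (SD, n = 8). The Actb values of the 5 AL-NIA livers were -1.12, -0.14, -0.98, -0.79 and -0.17, and overlapped with those of MF-NIA. For Mterf4 the AL-NIA mean, 2.65 ± 0.24, was below the MF-NIA mean of 2.73 ± 0.21 by less than the spread. Taking the mean of the 8 probe differences on each array, CR-NIA arrays spanned 1.46 to 3.04 and MF-NIA arrays 0.90 to 1.17, without overlap. These 2 groups chose the genes and the probes of each pair, so a gap between them was built in and nothing is read from it. The lowest CR-NIA value was that of the library labelled CR-NIA replicate 1, and the other 8 started at 1.90, above every AL-NIA array. The AL-NIA arrays spanned 1.28 to 1.79, CR-WIS 1.52 to 2.17, MF-WIS 1.18 to 1.84 and AL-WIS 1.27 to 1.78. The AL-NIA, CR-WIS, MF-WIS and AL-WIS ranges overlapped each other, that of CR-WIS with MF-WIS through MF-WIS replicate 4 alone, since the other 3 MF-WIS arrays reached 1.38.

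How far probes of a gene moved apart between mice of a group differed from pair to pair. Over the 25 arrays of the 4 other groups, the within-group SD of the difference between Actb ILMN_2846865 and ILMN_2588055 was 0.11, against 0.80 for ILMN_2846865 and ILMN_2617433. Among the 3 Acaa2 probes that were lower together it was 0.09 to 0.10, and 0.27 between ILMN_2788984 and ILMN_2704823. For Dap3 it was 0.08 between ILMN_2620078 and ILMN_2722542, and 0.20 between ILMN_2620078 and ILMN_2646230. Agreement in the choosing contrast did not always go with a narrow spread. The Dap3 probes ILMN_2953910 and ILMN_2646230, both lower in CR-NIA, had an SD of 0.31, the Mterf4 probes ILMN_2679695 and ILMN_1218949, also both lower, 0.26 against 0.23 for the oppositely moving pair, and the Kng1 probes ILMN_2788223 and ILMN_2788221 0.32. The median over the 1993 genes was 0.20. Kng1 had the widest probe difference between mice of a group, 0.88, and Chmp2a the narrowest of the 8, 0.19.

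Opposite calls within a gene were rare in the series, but called probe differences were more frequent in the NIA groups. In the choosing contrast, which set the pairs, the probe difference was called for 606 of 1993 genes (30.4%). Between CR-NIA and AL-NIA it was called for 293 genes (14.7%). In the choosing contrast 18 of 1993 genes had opposite calls, 0.903%, and 7 of the 18 are described here. The other 11 were Get4, Mtx1, Nme7, Ppm1b, Psme4, Ptp4a2, Pts, Rpl29, Slc25a11, Stard10 and Tollip. Between CR-NIA and AL-NIA only Mterf4 had them, 0.0502% of the genes, and 0 genes (0%) did in the 5 remaining comparisons. Between CR-WIS and MF-WIS the probe differences of the other 11 were above 0 for 11 of 11 genes (71.7% of all genes, median 0.47). Of these 2 were called (1.71% of all). Between MF-WIS and AL-WIS 0 of 11 were above 0 (38.5% of all, median -0.19) and 0 were called (0%). Both comparisons share the 4 MF-WIS arrays. Between CR-WIS and AL-WIS 10 of 11 were above 0 (63.9% of all) and 1 was called (1.86%). Between AL-WIS and AL-NIA 4 of 11 were above 0 (52.7% of all) and 0 were called (0.0502%).

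**Figure D4:**
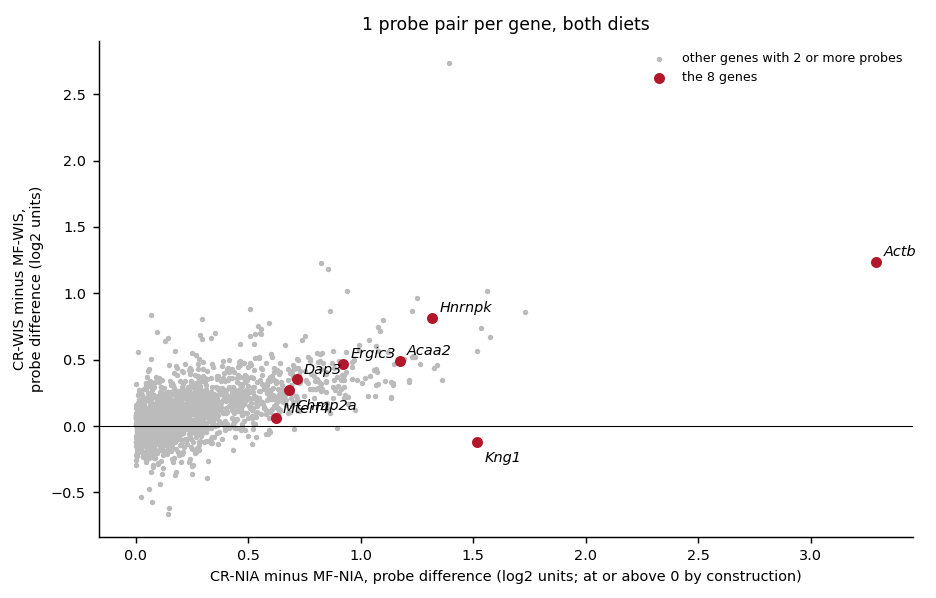
Probe difference of each of 1993 genes, CR-NIA minus MF-NIA (horizontal, log2 units, at or above 0 by the choice of probes) and CR-WIS minus MF-WIS (vertical, log2 units), with the 8 genes in red. Actb lies farthest to the right at 3.29, and Kng1 lies below 0 on the vertical axis at -0.12.

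Whether the disagreements of different genes moved together between mice was examined in the 25 arrays that took no part in the choice, after each group's mean was removed. Of the 28 pairs of genes, 23 correlated above 0, with a median Pearson's r of 0.27. Over all 1985028 pairs of the 1993 genes with several probes, 54.1% correlated above 0 and the median r was 0.03. An r above 0.5 was reached by 10 of the 28 pairs, 35.7%, and by 4.06% of all pairs, as a description with no test. By permutation (100000 resamples within groups, adjusted over the 28 pairs), 7 passed by Pearson's r, 7 by Spearman's rho and 6 by both. The highest were Dap3 with Hnrnpk (r = 0.65, adjusted p = 0.0179, rho = 0.70, adjusted p = 0.0112), Chmp2a with Ergic3 (r = 0.64, adjusted p = 0.0098, rho = 0.68) and Acaa2 with Dap3 (r = 0.62, rho = 0.62). Acaa2 also passed with Ergic3 (r = 0.62), Hnrnpk (r = 0.61) and Chmp2a (r = 0.58), and Dap3 with Ergic3 (r = 0.56), which missed by rho (adjusted p = 0.0644). Chmp2a with Hnrnpk passed by rho only (r = 0.57, rho = 0.55). Without the 2 arrays farthest from the median of the first gene, r in the 7 pairs ranged from 0.45 to 0.71. Actb, Kng1 and Mterf4 were in none of the passing pairs. When AL-WIS replicate 1 and MF-WIS replicate 4 were left out, 3 pairs passed by Pearson's r, 2 of them among the 7, and the third was Actb with Kng1 (r = 0.62, adjusted p = 0.0251, rho = 0.74, adjusted p = 0.00336), at r = 0.24 over all 25 arrays. With quantile normalization of the scores, 7 pairs passed by Pearson's r, 6 of them among the 7 above, and 5 passed by rho. The median r was 0.15. Dap3 with Ergic3 no longer passed (r = 0.45, adjusted p = 0.0876), Chmp2a with Dap3 did (r = 0.565, adjusted p = 0.0357), and Actb with Kng1 was at -0.12. All 8 probe differences of an array come from the same labelled RNA and share its depth and scaling. Beyond that normalization, the part of depth and scaling in these correlations was not tested.

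**Figure D5:**
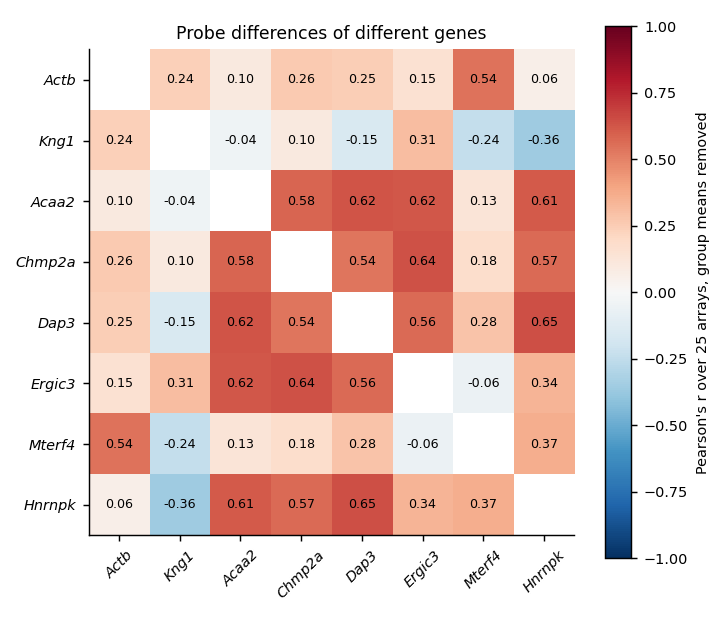
Pearson's r between the probe differences of each pair of the 8 genes over 25 arrays (AL-NIA, CR-WIS, MF-WIS and AL-WIS), after removal of group means; colour runs from -1 to 1. Acaa2, Chmp2a, Dap3, Ergic3 and Hnrnpk form a block of values above 0, and Kng1 has values near or below 0 with most genes.

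Outside the 8 genes, the probe differences most like their mean, over the same 25 arrays, were those of Cryz (r = 0.75), Nme7 (r = 0.72), Ctage5 (r = 0.70), Gatb (r = 0.70) and Srsf5 (r = 0.70). Cryz encodes a quinone reductase, Gatb a subunit of a mitochondrial amidotransferase and Srsf5 a splicing factor. These values were the highest of all genes with several probes and are given as a description. In that mean Kng1 and Actb, with the widest within-group SDs of the 8 (0.88 and 0.80), weigh more than the others.

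Lists of genes that share a pathway or complex with each of the 8 genes were drawn up. In the 4 tested contrasts none of their genes had probes called in opposite directions, nor was any of their probe pairs called. In the choosing contrast, which set the pairs, 0 to 6 pairs per list were called, given as a description. Among 8 common reference genes with several probes, the median probe difference between CR-WIS and MF-WIS was -0.03. It was 0.14 for 9 actin cytoskeleton genes, 0.25 for 8 genes of mitochondrial beta-oxidation, 0.24 for 6 of the kinin and contact system, 0.21 for 4 of ESCRT-III, 0.07 for 9 of the small mitochondrial ribosomal subunit, 0.13 for 5 of transport from endoplasmic reticulum to Golgi, 0.00 for 4 of mitochondrial transcription and 0.09 for 8 hnRNP and KH genes, against 0.09 for all 1993 genes.

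Among the 4 tested contrasts, most partner genes called by level were called between CR-WIS and AL-WIS, where 6.96% of all 7958 measured genes had a probe called higher and 8.02% one called lower. Of 18 measured beta-oxidation genes 8 rose and 0 fell, among them Acads (short-chain acyl-CoA dehydrogenase), which averaged 2.90 ± 0.17 in CR-WIS (SD, n = 10) and 2.35 ± 0.40 in AL-WIS (SD, n = 6; limma adjusted p = 0.00728), and Cpt2, the inner-membrane carnitine acyltransferase (3.53 ± 0.18 and 2.90 ± 0.80, adjusted p = 0.043). Of 22 actin cytoskeleton genes 4 fell, among them the actin-binding Tmsb4x, at 3.89 ± 0.53 in CR-WIS and 4.85 ± 0.85 in AL-WIS (adjusted p = 0.0152), and the membrane linker Msn. Of 27 small mitochondrial ribosomal subunit genes 4 rose and 1, Mrps25, fell, and Mrps28 was at 2.63 ± 0.07 in CR-WIS and 2.33 ± 0.19 in AL-WIS (adjusted p = 0.00874). Without AL-WIS replicate 1, whose macrophage and neutrophil marker levels were 3.52 and 3.21, 1 beta-oxidation gene (Acads), 0 actin genes and 3 ribosomal genes (Mrps5, Mrps26 and Mrps28) were called, against 2.99% of all genes higher and 2.75% lower. Of 23 transport genes 2, Lman2l and Ergic1, fell, and of 20 hnRNP and KH genes 2, Hnrnpc and Hnrnph1, fell. In the kinin and contact system 1 of 11 genes, F12, rose. Without AL-WIS replicate 1 the hnRNP and KH list and the kinin list had 0 genes called, and the transport genes called were Lman2l and Sar1b, both lower. Over all 6 AL-WIS arrays, 0 of 16 ESCRT-III, 0 of 12 mitochondrial transcription and 0 of 9 reference genes were called.

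Between CR-WIS and MF-WIS, where 1.47% of all genes had a probe called higher and 2.50% one called lower, 1 beta-oxidation gene rose, Etfb, an electron carrier of the pathway, at 5.28 ± 0.27 in CR-WIS (SD, n = 10) and 4.53 ± 0.37 in MF-WIS (SD, n = 4; limma adjusted p = 0.0245). The coagulation factor F11, Mterf1a and Hnrnph1 fell, and the other partners were not called. None of the partner genes was called between MF-WIS and AL-WIS or between AL-WIS and AL-NIA by limma, where 1745 and 1436 of all 11334 probes had an unadjusted p under 0.05.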

How the data were processed

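In the value table the authors deposited, a score stands for every probe on every array. The scores of an array have mean 0 and SD 1, and how they were made is not given in the labels used here. A second deposited table holds linear signal intensities (GenomeStudio 2011.1, per the submitters' processing notes) and, per the file headers, a detection p-value beside each intensity. RNA was amplified with an oligo-dT primer, per the labels' protocols. Signal columns name a group and not a sample. By its header, AL-NIA has 6 columns for 5 labelled samples and CR-NIA 8 for 9, so the 6 AL-NIA columns were not used and 34 were. A column of the same group lay within 0.01 of the scores for 34 of 35 samples. The exception was the library labelled CR-NIA replicate 1, whose closest column differed by up to 3.17.

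Scores were multiplied by 1.51, the median SD of the log2 signals (1.38 to 1.66 over columns). Without background subtraction, differences of dim probes are understated. Probes with a detection p under 0.01 on at least 4 of 34 columns were kept (11334), of which 1993 genes had several (3556 pairs). Names came from the platform annotation (23978 probes with 1 symbol, 1719 with none, 0 with several). Probe differences and separate probes were fitted with limma 3.58.1 (R 4.3.3), 1 mean per group over 40 arrays, and Benjamini-Hochberg adjustment over all pairs or probes at 0.05. The plan set the pair of a gene as its highest and lowest probe in CR-NIA minus MF-NIA, and named besides the genes most like the mean and partner genes with opposite calls. Partner genes and the 11 genes with opposite calls were otherwise named after their values were seen. The fit was tested on simulated data. Alternatives were other filters, normalizations and tables, array weights, moderation, a replicate block, and libraries left out. The members and lists were chosen with earlier results of these data known. The number of arrays limits the precision. The series text states more arrays than the 40 analysed here.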

Additional observations from a re-analysis of the deposited data

Results flagged for a closer look

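In 4 of 48 groups of arrays tested (8 probe differences in 6 groups) the highest or lowest array stood apart by Dixon's criterion, where chance gives about 1 in 20. The Chmp2a probe difference of CR-NIA replicate 5 was 2.87 (1.68 to 2.19 on the other 8 arrays). The Dap3 probe difference of the library labelled CR-NIA replicate 1 was 2.46 (3.05 to 3.47 on the others). The Hnrnpk probe difference of MF-NIA replicate 1 was -2.60 (-2.14 to -1.95 on the others). The Kng1 probe difference of CR-WIS replicate 6 was 3.68 (5.15 to 6.64 on the others).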

How the results depend on the processing

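In the 4 tested contrasts, Hnrnpk in CR-WIS minus MF-WIS and Actb in CR-WIS minus AL-WIS were the only probe differences of the 8 genes called, and both sat near the threshold. Of all settings tried, 1 called probe difference between CR-WIS and MF-WIS became 0 with no detection filter and with the replicate block. It became 6 with array weights, and 5 when 3 libraries were left out together (AL-WIS replicate 1, MF-WIS replicate 4 and the library labelled CR-NIA replicate 1). The 0 called probes of that comparison became 1 in a fit of those 2 groups alone, 8 with array weights and 4 without the 3 libraries. Calls over all features moved as well, from 55 of 3556 probe pairs and 379 of 11334 probes in the main fit. They were 371 and 1868 with array weights, 144 and 630 without the 3 libraries, and 0 and 5 with the replicate block. With no filter 91 of 10994 pairs were called, and with those 2 groups alone 455 probes. Between CR-WIS and AL-WIS, the 1 called probe difference became 0 when probes had to be detected on every column, with trended and robust moderation and with the replicate block, and the 3 called probes became 1 with no filter and 0 with only the groups compared, the replicate block or the 3 libraries left out. Over all features, 66 of 3556 pairs and 1479 of 11334 probes were called there in the main fit. They were 13 and 305 with the replicate block. With the trended and robust moderation 49 pairs were called, and with detection on every column 6 of 1808. Called probes were 945 of 25697 with no filter, 484 with only the groups compared and 992 without the 3 libraries. The cause of these changes was not tested. With 1 library left out, called probe differences ranged from 0 to 1 in both comparisons, and called probes from 0 to 1 (CR-WIS minus MF-WIS) and 0 to 4 (CR-WIS minus AL-WIS). The 7 correlated gene pairs became 3 without AL-WIS replicate 1 and MF-WIS replicate 4.

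Uncalled probe differences changed sign as follows. In CR-WIS minus AL-WIS, Chmp2a was -0.06 and Dap3 -0.068 with quantile normalization of scores, -0.06 and -0.072 on log2 signals, -0.073 and -0.099 with neqc (limma's background correction and normalization), and -0.035 and -0.016 with array weights, and Kng1 was -0.022 with neqc. With array weights Kng1 was 0.085 in CR-WIS minus MF-WIS, Actb -0.39 in MF-WIS minus AL-WIS (-0.19 without the 3 libraries) and Acaa2 -0.051 in AL-WIS minus AL-NIA. Dap3 was 0.09 in AL-WIS minus AL-NIA with quantile normalization. With 1 library left out, Acaa2 ranged from -0.055 to 0.122 and Dap3 from -0.098 to 0.023 in AL-WIS minus AL-NIA, Chmp2a from -0.033 to 0.057 and Kng1 from -0.023 (without AL-WIS replicate 4) to 0.527 (without AL-WIS replicate 1) in CR-WIS minus AL-WIS, and Kng1 from -0.266 to 0.089 (without CR-WIS replicate 6) in CR-WIS minus MF-WIS.

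Replicate numbers are shared by groups, but the deviations of arrays of the same number correlated from -0.25 to 0.52 across comparisons, so the numbers were not taken to pair samples. With the replicate block the Hnrnpk difference in CR-WIS minus MF-WIS was 0.74 (adjusted p = 0.165) and the Actb difference in CR-WIS minus AL-WIS 1.50 (adjusted p = 0.127).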
